A study of Homo sapiens with 16 samples.

Results

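Amino acid transporters are membrane proteins that bring amino acids into the cell or exchange them across its membranes. Transcripts of 10 of them, SLC7A11, SLC7A5, SLC7A8, SLC3A2, SLC1A4, SLC1A5, SLC38A1, SLC38A2, SLC43A1 and SLC7A1, were followed by their gene symbols in the probe table, where they had 12 of the 20589 probes and made up 10 of the 18190 gene symbols. The cells were MCF10HER2, which are MCF10A human breast epithelial cells that stably over express the receptor tyrosine kinase HER2, grown in serum-free medium with EGF and hydrocortisone and without added insulin. Parallel cultures were treated with 1 µM CP724,714, which inhibits the kinase activity of HER2, and RNA was taken every 3 h from 0 to 45 h. Each of the 16 time points had 1 array, and the 0 h culture was the only untreated one of the 16. Fresh medium came with the inhibitor and a vehicle-treated course was not analysed here, so the inhibitor, the fresh medium and time in culture cannot be told apart in any change with time.

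The members fall into a few functional types. SLC7A5 (LAT1), SLC7A8 (LAT2) and SLC7A11 (xCT) are light chains that do the transport in heterodimers with SLC3A2, the heavy chain that carries them to the plasma membrane: LAT1 and LAT2 exchange large neutral amino acids such as leucine against glutamine, and xCT takes up cystine, a precursor of glutathione, against glutamate. SLC1A4 (ASCT1) and SLC1A5 (ASCT2) are sodium-dependent exchangers of small neutral amino acids and glutamine, SLC38A1 (SNAT1) and SLC38A2 (SNAT2) accumulate glutamine and alanine with sodium, SLC43A1 (LAT3) lets large neutral amino acids through by facilitated diffusion, and SLC7A1 (CAT1) carries the cationic amino acids arginine, lysine and ornithine. Many of these genes are known targets of ATF4, the transcription factor of the response to amino acid shortage, and several are also known targets of MYC.

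The arrays detected 10363 to 11436 probes each, where detection means that a probe exceeded that array's negative controls at p under 0.05. Background intensity was 135.9 to 148.9 on the arrays of 0 to 21 h and 164.5 to 173.9 on those of 24 to 45 h, and the upper quartile of intensity was 397.3 to 418.4 at 9 and 18 h against 553.2 to 803.7 at the other times. Of 10 epithelial marker genes 7 were detected on every array, and each of the others on at least 1. Of 10 marker genes of blood, endothelial and stromal cells 5 were detected on no array and 3, PECAM1, DCN and CD14, on every array. The overexpressed HER2 gene itself, ERBB2, had probes detected on 1 and on 7 arrays, so the table gives no check of its level. In RNA from whole cultures, fewer cells that express a gene and less RNA of it per cell cannot be told apart.

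Transcripts of 6 members were detected on all 16 arrays, and 5 of these fell over the course. SLC7A5 and SLC3A2 fell the most and SLC38A1 the least, while SLC38A2 did not pass the test. With the arrays of 0 to 21 h and of 24 to 45 h as a block, 3 of the 6 passed. The share of all probes that passed with the block was not counted. Time dependence was tested in limma with a smooth curve, a natural cubic spline, and direction with a straight line, whose slope was scaled to the whole course (log2 change over 45 h), both with Benjamini-Hochberg adjustment over all 12321 probes tested. In the straight-line fit, 11.5% of all tested probes fell and 12.9% rose, whereas 5 of the 6 members detected throughout fell and 0 rose (5 and 0 also at an unadjusted p under 0.05), with a median change of -1.16 against -0.001 over all tested genes. In the spline fit 41.9% of the probes and the same 5 members were time-dependent, a share so high that this count says little about the members. The members were chosen with earlier results of these data known, so the count of falls is no independent evidence of a direction either. The shares of all probes also include probes detected on as few as 3 arrays. A signal 1.7-fold or more below the 0 h array at some time, a criterion with no error term, was reached by 9.47% of the probes and by 4 of the 6 members, SLC7A5, SLC3A2, SLC1A5 and SLC7A1. On the brightest probe of each gene 0 of the 6 reached 1.7-fold above 0 h, which 10.9% of the probes did; the second probe of SLC3A2 did so at 3 h. Of 10 marker genes of other cell types, 4 were tested and 2 rose over the same course, CD14 by 0.31 on the log2 scale (SE 0.08, adjusted p = 0.00935) and DCN by 0.26 (SE 0.05, adjusted p = 0.0013), and 3 of the 4 were higher at 12 to 21 h than at 6 to 9 h. Their summed normalized signal on the linear scale, over all 10, was 2477 to 2510 from 0 to 9 h and 2576 to 2677 from 12 to 45 h. This sum includes the 5 genes detected on no array, whose normalized signal is near background and not 0. The 4 tested genes were dim, at 7.97 (PTPRC) to 8.16 (DCN) on the log2 scale at 0 h and 7.98 (PTPRC) to 8.37 (CD14) at 45 h. For comparison, SLC7A11 read 7.85 to 7.93 from 12 to 45 h, where it was not detected. Of the epithelial markers 9 were tested, 2 fell and 2 rose, KRT17 by 2.91 (SE 0.32, adjusted p = 5.33e-06) and ITGB4 by 1.51 (SE 0.30, adjusted p = 0.00135), with a sum over 10 genes of 70532 to 93965 and then 83642 to 111816. The part of these in the members' falls was not tested.

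**Figure D1:**
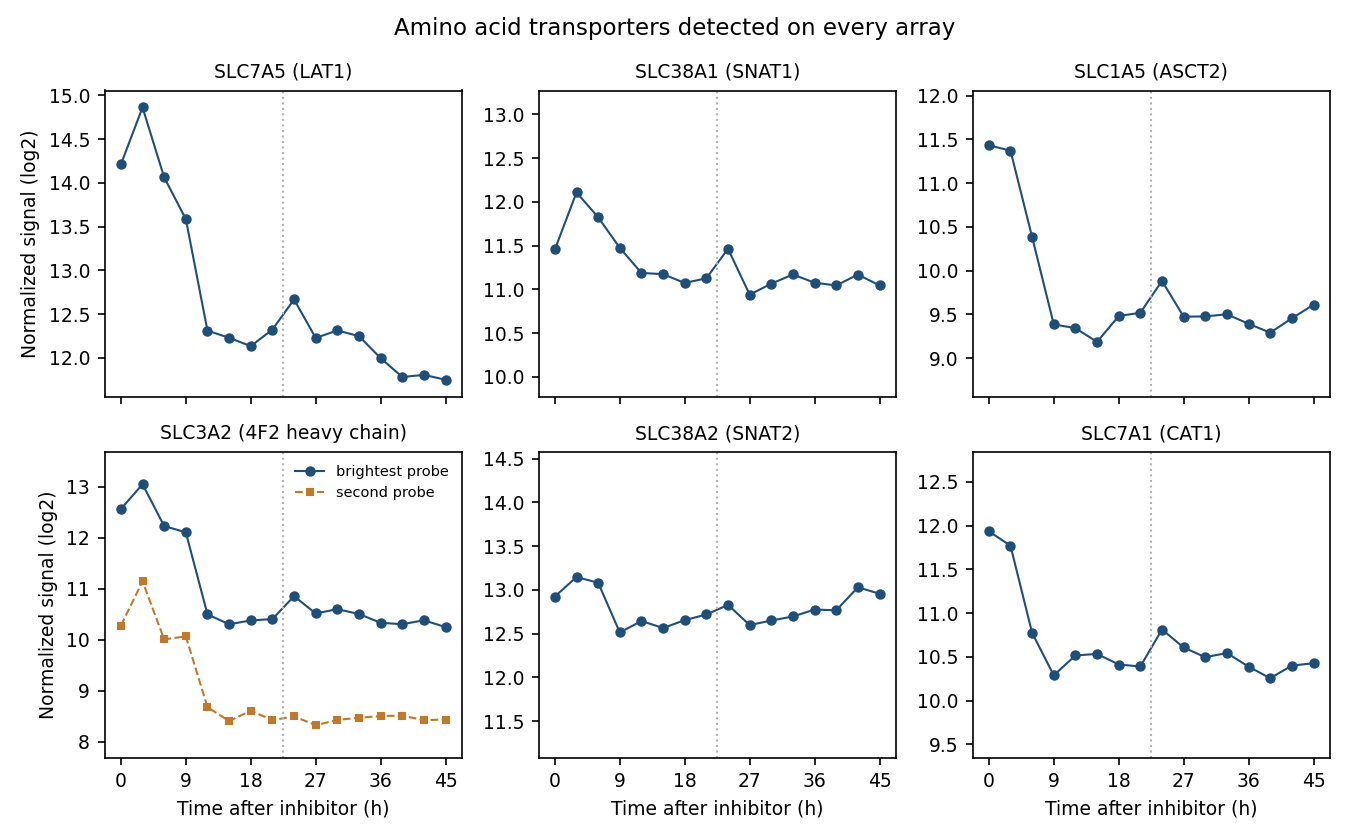
Normalized signal (log2, vertical axis) against hours after addition of the inhibitor (horizontal axis) for the 6 transporters detected on every array, 1 array a point; all panels span the same number of log2 units except that of SLC3A2, which shows 2 probes on a wider scale, and the dotted line separates the arrays of 0 to 21 h from those of 24 to 45 h. SLC7A5 and SLC3A2 were highest at 3 h and dropped between 9 and 12 h, SLC1A5 and SLC7A1 had reached their later levels by 9 h, SLC38A1 moved less and SLC38A2 was lowest at 9 h.

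SLC7A5, the leucine exchanger, had the largest fall of the members. Its normalized signal on the log2 scale was 14.21, 14.86, 14.06 and 13.59 at 0, 3, 6 and 9 h and 12.31, 12.23, 12.13 and 12.32 at 12, 15, 18 and 21 h. On the arrays of 24 to 45 h it was 12.67, 12.23, 12.31, 12.25, 12.00, 11.78, 11.81 and 11.75 at successive times. The 4 arrays of 0 to 9 h therefore all lay above the 12 arrays of 12 to 45 h, and the lowest value of the course was the last. This split and those given below for SLC3A2 and SLC7A1 are a description. The share of all probes with such a split was not counted. The 3 h signal was 1.57-fold above that at 0 h, a single pair of arrays with no test, and the 45 h signal was 5.51-fold below that at 0 h. The log2 change over 45 h was -2.55 (SE 0.39, n = 16 arrays, adjusted p = 0.000151 in limma).

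SLC3A2, the partner chain of SLC7A5, took nearly the same course. Its log2 signal was 12.56, 13.05, 12.23, 12.11 and 10.50 on the first 5 arrays, 0 to 12 h. It was then 10.30, 10.38 and 10.41 to 21 h, 10.86, 10.52, 10.60 and 10.51 from 24 to 33 h, and 10.33, 10.31, 10.38 and 10.25 from 36 to 45 h. Again the first 4 arrays did not overlap with the later 12. In normalized signal the drop between 9 and 12 h was 3.05-fold for SLC3A2 and 2.42-fold for SLC7A5, in each the largest step between neighbouring arrays. Its size depends on the scaling of the 9 h array, whose upper quartile was 397.3, against 588.4 at 6 h and 558 at 12 h. Before normalization SLC7A5 read 16439, 7294 and 4932 at 6, 9 and 12 h, and SLC3A2 4833, 2625 and 1577, with the larger fall from 6 to 9 h. The log2 change of SLC3A2 over 45 h was -2.30 (SE 0.45, adjusted p = 0.00102 in limma). A second, dimmer probe of SLC3A2 read 10.28, 11.15, 10.01, 10.07 and 8.68 from 0 to 12 h and changed by -2.11 (SE 0.43, adjusted p = 0.00146), and its 3 h signal was 1.82-fold above 0 h against 1.40-fold for the brighter probe.

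Across the 16 arrays the signals of SLC7A5 and SLC3A2 had a Pearson r of 0.987, and of 0.825 over the 12 arrays of 12 to 45 h; these points share arrays and a step in time, and r is given as a description. The difference between the 2 log2 changes over 45 h, SLC7A5 minus SLC3A2, was -0.25 (95% interval -0.50 to -0.003). The start sites of both genes are shown because the chains work as 1 transporter and their transcripts moved together. The sequences are RefSeq promoters of GRCh38.p14, 300 bases from 250 before to 50 after a start site, read 5′ to 3′ on the strand of the gene, that of SLC7A5 from chr16:87869458-87869757 (minus strand) and that of SLC3A2 from chr11:62881449-62881748 (plus strand), which is 1 of the gene's 3 start sites in the table. Capitals mark matches, on either strand, to CACGTG (the E-box that MYC binds), TGACNNNGC (the core of the antioxidant response element) and TGATGNAA (the core of the element that ATF4 binds with a C/EBP partner).
SLC7A5: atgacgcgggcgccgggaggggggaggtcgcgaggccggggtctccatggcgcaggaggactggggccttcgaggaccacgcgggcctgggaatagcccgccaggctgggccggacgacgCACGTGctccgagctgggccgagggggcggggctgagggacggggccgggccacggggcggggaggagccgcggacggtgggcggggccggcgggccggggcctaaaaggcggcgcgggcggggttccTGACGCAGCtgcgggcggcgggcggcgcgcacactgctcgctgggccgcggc
SLC3A2: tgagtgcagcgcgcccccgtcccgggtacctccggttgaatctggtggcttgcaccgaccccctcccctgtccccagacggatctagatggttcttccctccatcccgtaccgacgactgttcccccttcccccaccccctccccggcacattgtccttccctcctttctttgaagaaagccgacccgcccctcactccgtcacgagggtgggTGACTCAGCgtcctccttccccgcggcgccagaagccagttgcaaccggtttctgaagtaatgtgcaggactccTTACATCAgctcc
Distances are to the first base of a match. The capitals in SLC7A5 are an E-box that begins 130 bases upstream of the start and an antioxidant core that begins 2 bases upstream and runs across it. Those in SLC3A2 are an antioxidant core 37 bases upstream and, on the opposite strand, an ATF4-type core 37 bases downstream. The start site of SLC3A2 that is shown was the only 1 of its 3 with a match. A match is a description of the letters and not of binding. Of all 35116 promoters in the table, 7.26% held the E-box, 13.3% the antioxidant core and 3.62% the ATF4-type core.

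SLC1A5 and SLC7A1, a neutral exchanger and the cationic carrier, fell earlier and were already low at 9 h. The log2 signal of SLC1A5 was 11.43, 11.37, 10.38 and 9.39 from 0 to 9 h, and 9.34, 9.19, 9.48 and 9.52 from 12 to 21 h. It read 9.88 at 24 h and lay between 9.29 and 9.61 from 27 to 45 h. Neither gene had a rise at 3 h, and by 9 h the signal of SLC1A5 was 4.14-fold below 0 h, with 3.54-fold at 45 h. Its log2 change over 45 h was -1.35 (SE 0.41, adjusted p = 0.0217 in limma), and the call was lost without the 0 h array (-0.92, adjusted p = 0.110) or the 3 h array (-0.99, adjusted p = 0.0761).

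SLC7A1 read 11.94, 11.77, 10.77 and 10.29 on the log2 scale from 0 to 9 h. Its later values were 10.52, 10.53, 10.41 and 10.39 from 12 to 21 h, 10.81 at 24 h, and 10.26 to 10.61 from 27 to 45 h. The 0 and 3 h arrays stood above the other 14, and the signal was 2.24-fold, 3.13-fold and 2.85-fold below 0 h at 6, 9 and 45 h. Its log2 change over 45 h was -0.98 (SE 0.29, adjusted p = 0.0202), which without the 0 h array was -0.64 (adjusted p = 0.104) and without the 3 h array -0.73 (adjusted p = 0.0703). The spline fits of both genes, which follow a bend, kept their calls without either of these arrays, and without both that of SLC7A1 was lost (adjusted p = 0.236).

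The neutral carriers SLC38A1 and SLC38A2 changed less. SLC38A1 read 11.46, 12.11, 11.82, 11.47 and 11.19 on the log2 scale from 0 to 12 h, and was between 10.94 and 11.46 from 12 to 45 h. Its 3 h value was the highest, 1.57-fold above 0 h as for SLC7A5, and the 0 h value lay within the range of the later arrays. Its log2 change over 45 h was -0.69 (SE 0.19, adjusted p = 0.0123 in limma). Its call in the spline fit (adjusted p = 0.0229) was lost without the 3 h array (adjusted p = 0.112) or the 6 h array (adjusted p = 0.0564). SLC38A2 read 12.92, 13.15, 13.08 and 12.51 at 0, 3, 6 and 9 h, was between 12.56 and 12.83 from 12 to 39 h, and was at 13.03 and 12.96 at 42 and 45 h. Its log2 change over 45 h was -0.03 (SE 0.16, adjusted p = 0.909) and its adjusted p in the spline fit 0.0525. That fit passed in 9 of 28 alternatives, with adjusted p-values down to 0.00146 with array weights, and the step from 0 to 3 h to 6 to 9 h passed without the 6 h array (-0.52, adjusted p = 0.00805) and the next one without the 9 h array (-0.43, adjusted p = 0.0124). The difference in change over 45 h between the pair, SLC38A1 minus SLC38A2, was -0.66 (95% interval -0.91 to -0.40).

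The ATF4-type core TGATGNAA was found near a start site of 5 of the 9 members with a promoter in the table, SLC3A2 as shown above and the 4 given here with their flanks, so that the matches can be seen beside the differing courses. The stretches are from GRCh38.p14, 5′ to 3′ on the strand of the gene, at chr13:29595648-29595707 for SLC7A1 (minus), chr19:46784878-46784937 for SLC1A5 (minus), chr12:46266487-46266546 for SLC38A1 (minus) and chr2:64989366-64989425 for SLC1A4 (plus), with the match in capitals.
SLC7A1: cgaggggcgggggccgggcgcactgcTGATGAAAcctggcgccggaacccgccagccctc
SLC1A5: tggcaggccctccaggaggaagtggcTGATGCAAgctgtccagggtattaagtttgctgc
SLC38A1: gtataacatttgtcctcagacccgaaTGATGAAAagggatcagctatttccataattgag
SLC1A4: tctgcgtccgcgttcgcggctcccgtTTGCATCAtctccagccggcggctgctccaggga
The match began 7 bases downstream of the start in SLC7A1, and 97, 4 and 7 bases upstream in SLC1A5, SLC38A1 and SLC1A4, in the last on the opposite strand. That of SLC38A1 ran across the start, and that of SLC1A4 ended on it. In SLC1A5, SLC38A1 and SLC1A4, as in SLC3A2, the core was not at every start site in the promoter table. In all, 5 of the members' 19 start sites held this core (3.62% of all promoters), 4 an E-box (7.26%) and 4 an antioxidant core (13.3%). The 5 of 9 members are counted by gene, where a match at any start site counts, and cannot be set against these shares. SLC7A11 had no entry in the promoter table. The genes with the core included the one that fell late (SLC3A2), those that fell early (SLC1A5, SLC7A1) and the less changed SLC38A1, whereas SLC7A5 had none in this window, which says only that these letters are not there.

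To set the timing of the falls against an error, the arrays were taken as 5 sets of successive times, 0 to 3, 6 to 9, 12 to 21, 24 to 33 and 36 to 45 h, in which neighbouring arrays stand in for replicates and a trend inside a set counts as spread. From 0 to 3 h to 6 to 9 h, 13.0% of all tested probes fell and 12.9% rose. Of the 6 members detected on every array 4 fell at this step and 0 rose, also at an unadjusted p under 0.05. The log2 differences in limma were -1.52 for SLC1A5 (SE 0.22, adjusted p = 6.44e-05), -1.32 for SLC7A1 (SE 0.15, adjusted p = 3.61e-06), -0.71 for SLC7A5 (SE 0.18, adjusted p = 0.00769) and -0.64 for SLC3A2 (SE 0.15, adjusted p = 0.00363). The falls of SLC7A5 and SLC3A2 at this step rested on their 3 h peak and were -0.39 (adjusted p = 0.112) and -0.39 (adjusted p = 0.0519) without that array. That of SLC7A5 was -0.47 (adjusted p = 0.147) without the 9 h array.

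From 6 to 9 h to 12 to 21 h the order was the other way round. At this step 17.8% of the probes fell and 16.9% rose, and 4 of the 6 members fell. The log2 differences were -1.77 for SLC3A2 (SE 0.13, adjusted p = 4.3e-08), -1.57 for SLC7A5 (SE 0.16, adjusted p = 1.59e-06), -0.51 for SLC38A1 (SE 0.16, adjusted p = 0.0169) and -0.50 for SLC1A5 (SE 0.19, adjusted p = 0.0489). The difference of SLC7A1 was -0.07 (SE 0.13, adjusted p = 0.715). Without the 6 h array the step of SLC1A5 was -0.004 (adjusted p = 0.992) and that of SLC38A1 -0.33 (adjusted p = 0.233). The call of SLC1A5 passed in 7 of 24 alternatives, and that of SLC38A1 in 22, with -0.04 (adjusted p = 0.910) under median scaling. Those of SLC3A2 and SLC7A5 were kept in each of the 24 alternatives that could be run for this contrast.

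A contrast of the second step with the first, chosen after the values had been seen, was lower in 13.5% and higher in 13.0% of the probes. SLC3A2 fell more at the second step than at the first, with a log2 difference of -1.13 (SE 0.24, adjusted p = 0.00253 in limma), as did SLC7A5 with -0.86 (SE 0.31, adjusted p = 0.0442). SLC7A1 fell more at the first, with a difference of 1.25 (SE 0.24, adjusted p = 0.00109), as did SLC1A5 with 1.02 (SE 0.37, adjusted p = 0.0476). The contrasts for SLC7A5 and SLC1A5 passed in 10 and 9 of 24 alternatives: that for SLC7A5 was -0.38 (adjusted p = 0.488) without the 6 h array, and that for SLC1A5 was 0.01 (adjusted p = 0.988) without the 9 h array, the dimmer of its set. Those for SLC3A2 and SLC7A1 passed in 22 and 21. Under median scaling the contrasts were lost for SLC3A2 (-0.55, adjusted p = 0.425 in limma) and SLC7A5 (-0.37, adjusted p = 0.610). They were kept there for SLC7A1 (1.88, adjusted p = 0.00933) and SLC1A5 (1.49, adjusted p = 0.0481). With array weights neither that for SLC3A2 (-0.96, adjusted p = 0.0993) nor that for SLC7A1 (1.11, adjusted p = 0.0621) passed. Pair by pair, SLC7A5 minus SLC7A1 was 0.61 (95% interval 0.16 to 1.05) at the first step and -1.51 (95% interval -1.89 to -1.12) at the second. SLC7A5 minus SLC1A5 was 0.80 (95% interval 0.29 to 1.32) and -1.07 (95% interval -1.52 to -0.62). These intervals set 1 gene against another within a step, and no alternative was run for them. SLC1A5 minus SLC7A1 was -0.20 (95% interval -0.57 to 0.18) at the first step and -0.43 (95% interval -0.76 to -0.11) at the second.

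**Figure D2:**
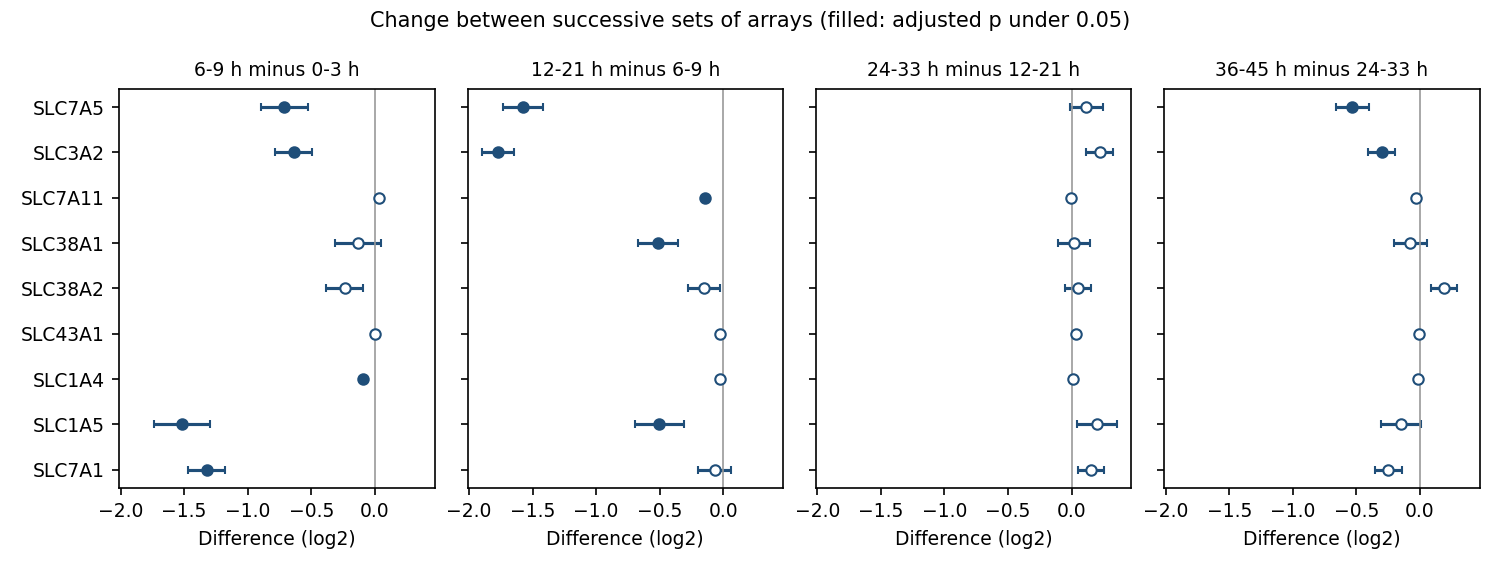
Difference in log2 signal between neighbouring sets of arrays (horizontal axis) for the 9 tested transporters (rows), with bars of 1 SE from the limma fit and filled points where the adjusted p was under 0.05. SLC1A5 and SLC7A1 had their largest fall at the first step, SLC3A2 and SLC7A5 at the second, no transporter passed at the third, and SLC7A5 and SLC3A2 passed at the last.

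Later changes were small. From 12 to 21 h to 24 to 33 h 0.284% of the probes fell and 0.179% rose in limma, and 0 of the 9 tested members passed, with 2 of the 9 at an unadjusted p under 0.05. From 24 to 33 h to 36 to 45 h, where 9.45% fell and 10.3% rose, SLC7A5 fell by 0.53 on the log2 scale (SE 0.13, adjusted p = 0.0078; 0.0544 with median scaling). SLC3A2 fell by 0.30 (SE 0.10, adjusted p = 0.0491), a call that was lost in 18 of 24 alternatives, and its second probe changed by 0.04 (adjusted p = 0.869). SLC38A2 was the only one of the 6 with a higher mean in the last set, by 0.19, which did not pass. The 24 h array, the first of those with higher background, was the highest from 12 h on for SLC7A5, SLC3A2, SLC1A5, SLC7A1 and SLC38A1.

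The direction within the 8 arrays of 0 to 21 h and within the 8 of 24 to 45 h was read separately, because the background differed between them. On the arrays of 0 to 21 h alone, the slopes scaled to 45 h were -6.06 for SLC7A5 (adjusted p = 0.0092), -6.59 for SLC3A2 (adjusted p = 0.0092), -4.75 for SLC1A5 (adjusted p = 0.0219) and -3.34 for SLC7A1 (adjusted p = 0.0288), while SLC38A1 (-1.80, adjusted p = 0.0661) and SLC38A2 (-0.99, adjusted p = 0.157) did not pass. On the arrays of 24 to 45 h they were -1.82 for SLC7A5 (adjusted p = 0.000246), -1.05 for SLC3A2 (adjusted p = 0.00884) and -0.81 for SLC7A1 (adjusted p = 0.0391). SLC1A5 (-0.48, adjusted p = 0.319), SLC38A1 (-0.33, adjusted p = 0.476) and SLC38A2 (0.60, adjusted p = 0.0725) did not pass there. Of the 6, SLC7A5, SLC3A2 and SLC7A1 fell on both sets of 8 arrays. With the 2 sets as a block in the fit of all 16 arrays, 3 of the 6 passed, SLC7A5 with a linear change of -3.93 (adjusted p = 0.00499), SLC3A2 with -3.73 (adjusted p = 0.0145) and SLC7A1 with -2.03 (adjusted p = 0.0309). SLC1A5 (-2.60, adjusted p = 0.0554) and SLC38A1 (-1.04, adjusted p = 0.110) did not, and the spline call of SLC38A1 was lost as well (adjusted p = 0.0819). The share of all probes that passed on either set of 8 arrays or with the block was not counted, so these counts have no background beside them.

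The scaling between arrays set part of these calls. When the arrays were scaled by their medians in place of quantile normalization, the share of higher calls among all probes with a linear trend went from 52.7% to 80.5%, with a median change over all genes of 0.07. SLC7A5 and SLC3A2 kept their linear fall, and the linear changes of SLC1A5 (-0.95, adjusted p = 0.0916), SLC7A1 (-0.58, adjusted p = 0.240) and SLC38A1 (-0.31, adjusted p = 0.317) no longer passed. The linear change of SLC38A2, which passed under neither scaling, was -0.03 before and 0.18 after, and the other 5 remained below 0.

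SLC7A11, SLC1A4 and SLC43A1 were close to the detection limit, where the normalized signal is compressed, and SLC7A8 was below it. Detection of SLC7A11, the cystine exchanger, had a pattern in time: it was detected at 0, 3, 6 and 9 h, at 8.01, 8.03, 8.10 and 8.01 on the log2 scale, and not well above background on any of the 12 arrays from 12 to 45 h, where it read 7.85 to 7.93. This is the interval in which the normalized signal of SLC7A5 and SLC3A2 dropped. Its signal at 6 to 9 h was at least 1.09-fold above that at 12 to 21 h, a lower bound. That step was -0.14 on the log2 scale (SE 0.02, adjusted p = 4.71e-05 in limma), with -0.17 over 45 h (SE 0.03, adjusted p = 0.000762). The change over 45 h did not pass with the arrays of 0 to 21 h and of 24 to 45 h as a block (-0.21, adjusted p = 0.0632). On the arrays of 0 to 21 h alone it did not pass either (-0.30, adjusted p = 0.0573). SLC1A4 was detected at 0, 3 and 24 h alone, at 8.01, 8.05 and 7.97, and was at least 1.06-fold higher at 0 to 3 h than at 6 to 9 h (difference -0.09, adjusted p = 0.0108). SLC43A1 was detected at 3, 24, 30 and 36 h with a change over 45 h of 0.009 (adjusted p = 0.760). The 2 probes of SLC7A8 were detected on 0 arrays, with lowest detection p-values of 0.0556 and 0.194, so LAT2 was not tested. A member that is detected at its high end alone enters the tests because it is high there. This holds for SLC7A11 and SLC1A4, so their p-values are a description and not a test of a fall. They are therefore not counted with the 6 above, and neither are SLC43A1, detected on 4 arrays, and the untested SLC7A8.

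**Figure D3:**
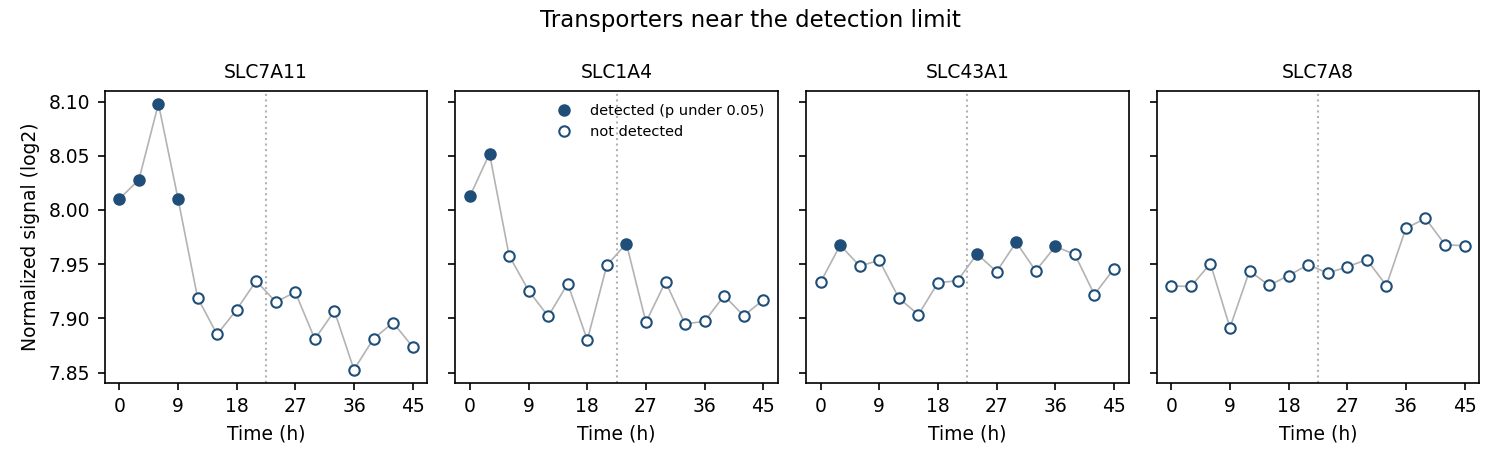
Normalized signal (log2, vertical axis) against time after addition of the inhibitor (horizontal axis) for the 4 transporters at or below the detection limit, 1 array a point, filled where the probe was detected on that array; the brighter of the probes of SLC7A8 is shown. SLC7A11 was detected on the first 4 arrays and on none of the later 12, and all values lie between 7.85 and 8.10.

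The other members of the transporter families gave no common direction. Of 37 listed, 32 were in the table and 15 could be tested; 3 of the 15 fell and 2 rose in the straight-line fit (11.5% and 12.9% of all probes), with a median change of -0.06. SLC6A9, a glycine transporter, fell by 1.19 on the log2 scale over 45 h (SE 0.28, adjusted p = 0.00446 in limma), from 10.06 at 0 h to 9.04 at 9 h and 8.47 at 12 h. SLC36A1, a proton-coupled carrier of small amino acids on lysosomes and at the plasma membrane, fell by 0.98 (SE 0.23, adjusted p = 0.00375). It rose from 9.06 at 0 h to 9.42 and 9.46 at 3 and 6 h before it reached 8.31 at 12 h. CTNS, the lysosomal cystine carrier, fell by 0.29 (SE 0.09, adjusted p = 0.0263). SLC43A2 (LAT4) rose by 0.26 (SE 0.06, adjusted p = 0.00343) and SLC7A7, a light chain that exchanges cationic for neutral amino acids and was detected on 8 arrays, by 0.09 (SE 0.02, adjusted p = 0.00116). With the arrays of 0 to 21 h and of 24 to 45 h as a block, 0 of the 15 passed in limma and 3 had an unadjusted p under 0.05.

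Of 15 listed genes of the response to amino acid shortage, 11 were tested. In the straight-line fit 5 of these fell over 45 h and 0 rose (7 and 0 at an unadjusted p under 0.05), against 11.5% and 12.9% of all probes. Their median change was -0.71 against -0.001 over all tested genes. ASNS, asparagine synthetase, fell by 3.88 (SE 0.47, adjusted p = 1.17e-05), and its log2 signal of 13.66, 13.59, 13.26 and 12.86 from 0 to 9 h dropped to 11.29 at 12 h, the interval of the SLC7A5 and SLC3A2 drop, and on to 9.87 at 45 h. TRIB3, a pseudokinase that restrains ATF4, fell by 3.04 (SE 0.50, adjusted p = 0.000268) and early, from 14.44 at 0 h and 14.13 at 3 h to 12.15 at 6 h. EIF4EBP1, an inhibitor of cap-dependent translation, fell by 1.45 (SE 0.17, adjusted p = 1.13e-05). CEBPG, a C/EBP partner of ATF4, fell by 1.43 (SE 0.40, adjusted p = 0.0144), from 11.17 at 0 h to 8.72 at 9 h, the early course of SLC1A5 and SLC7A1. DDIT4, an inhibitor of mTORC1, was the fifth gene past the threshold (-0.71, SE 0.10). ATF4 itself, named after its values were seen, had a linear change of 0.07 (SE 0.26, adjusted p = 0.882) over a course that bent: it read 14.04, 13.06, 12.83 and 13.65 at 0, 9, 12 and 45 h, and its step from 0 to 3 h to 6 to 9 h was -0.80 (SE 0.14, adjusted p = 0.000298).

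Of the 16 listed enzymes that make or use the carried amino acids, 13 were tested, 6 fell and 2 rose (11.5% and 12.9% of all probes), with a median change of -0.08 against -0.001 over all tested genes. ODC1, which turns ornithine into putrescine, fell by 1.83 (SE 0.30, adjusted p = 0.000265 in limma). GCLM, the modifier subunit of the first enzyme of glutathione synthesis, fell by 1.39 (SE 0.19, adjusted p = 5.41e-05) and CBS, which commits homocysteine to cysteine synthesis, fell by 1.29 (SE 0.24, adjusted p = 0.000634). BCAT2, the mitochondrial transaminase of leucine, isoleucine and valine, rose by 0.74 (SE 0.25, adjusted p = 0.0337), and GLUL, glutamine synthetase, by 0.33 (SE 0.07, adjusted p = 0.00241). Some genes of these lists were known from earlier results of these data, and their counts are no independent evidence of a direction.

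**Figure D4:**
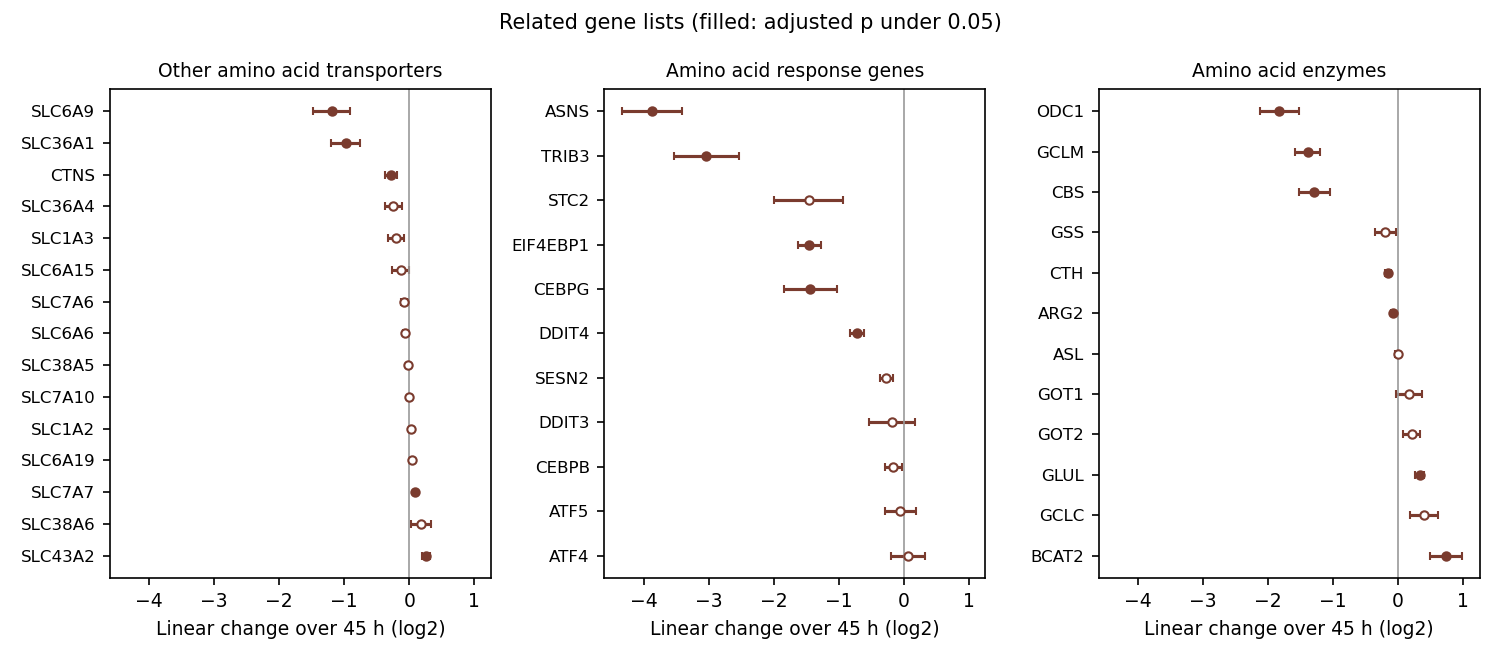
Linear log2 change over 45 h (horizontal axis) with bars of 1 SE for the tested genes of 3 lists (rows; 1 of the enzymes is not shown), filled where the adjusted p in limma was under 0.05. The 5 filled genes of the amino acid response list all lie below 0, from -3.88 for ASNS to -0.71 for DDIT4, while the other lists have filled genes on both sides.

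Among 11556 other tested genes, those whose log2 signal was most like that of SLC7A5 over the 16 arrays were C12orf5 (now TIGAR, a phosphatase that lowers glycolytic flux; Pearson r = 0.983), UPP1 (uridine phosphorylase; r = 0.983) and XPOT (the nuclear exporter of tRNA; r = 0.981). Those most like SLC3A2 were NSDHL (a sterol synthesis enzyme; r = 0.981), DHDH (a dihydrodiol dehydrogenase; r = 0.979) and CCNA1 (a cyclin; r = 0.978). Among the 3 most like SLC1A5 were C12orf34 (now FAM222A; r = 0.971) and IL1A (interleukin 1 alpha; r = 0.969). Among the members detected throughout, SLC1A5 and SLC7A1 had r = 0.959, and 0.586 over the 12 arrays of 12 to 45 h. All of these share the same 16 arrays and a high start, and r is given as a description of likeness in shape.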

How the data were processed

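Arrays were Illumina beadchips (human Ref-8 v2) and, by the methods of the study, were compared after quantile normalization. The authors deposited the intensity of each probe before normalization between arrays and a detection p-value, which sets the deposited intensity of a probe against the negative controls of its array. Groups and times were taken from the sample labels, which name no batch.

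Here limma 3.58.1 under R 4.3.3 served for all fits, and intensities were corrected by neqc (offset 16, controls inferred from detection p, quantile normalization) and taken to log2. The offset pulls fold changes of dim probes toward 1. Probes detected at p under 0.05 on 3 or more of 16 arrays were tested, which left out 40.2% of them; per gene the brightest probe was used. Models were fitted by lmFit and moderated by eBayes (mean-variance trend): a spline with 4 degrees of freedom, a straight line, and contrasts of 5 sets of successive arrays, with Benjamini-Hochberg adjustment over 12321 probes at 0.05. With no replicates, the error is the scatter of arrays about a fitted curve or set mean; the number of arrays limits the precision. Intervals of differences between probes, at 95%, come from fits to the difference of their log2 signals.

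The fits were tested on simulated data. The members, lists and sets were chosen with earlier results of these data known. Of the other lists, the genes past the threshold of the straight line were named, at most the 4 largest rises and falls each, and the 3 genes nearest in Pearson r to the 3 members with the largest fitted range; 2 of these genes are not reported here. All 10 symbols matched current RefSeq symbols; promoters of 9 members came from RefSeq GRCh38.p14. Alternatives were normexp with an offset of 50, no background correction, median scaling, other filters, the mean of probes, array weights, the arrays of 0 to 21 h and of 24 to 45 h as a block or alone, a spline with 3 degrees of freedom and leaving out arrays.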

Additional observations from a re-analysis of the deposited data

How the results depend on the processing

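Each count below is of the 9 tested members, or of list genes, past the threshold in limma, so that the counts given first, except for the last step and the 1.7-fold criterion, add SLC7A11, SLC1A4 or both, dim probes that passed through their high end, to those of the 6 above, and the cause of a move was not tested unless fewer arrays were used. No paired analysis was possible because no time point had a second array. Of the 7 members with a linear trend, 4 passed with median scaling, 3 with the arrays of 0 to 21 h and of 24 to 45 h as a block, 4 on the arrays of 0 to 21 h and 3 on those of 24 to 45 h alone, and 2 without the 0 and 3 h arrays together, an alternative chosen after seeing the data, under which 4 of 7 passed the spline fit. Leaving out 1 array at a time gave 4 to 7 with a linear trend (4 without the 0 h or the 3 h array) and 5 to 8 in the spline fit. The detection filter was applied to the arrays kept, so some of these counts had fewer members to test. SLC7A11 and SLC1A4 were not tested without the 0 and 3 h arrays together or on the arrays of 24 to 45 h alone. SLC1A4 was also not tested on the arrays of 0 to 21 h alone, or when the 0, 3 or 24 h array was left out. From 0 to 3 h to 6 to 9 h 5 members changed, with 2 to 6 when 1 array was left out (2 without the 3 h array). From 6 to 9 h to 12 to 21 h it was 5, with 3 under median scaling and 3 to 6 when 1 array was left out (3 without the 6 h array). From 12 to 21 h to 24 to 33 h it was 0 under every alternative run, with 0 to 2 at an unadjusted p under 0.05. For the last step, 2 members became 1 with normexp, 1 without background correction, 0 with median scaling (2 at an unadjusted p under 0.05), 1 without a filter, 1 with the mean of probes, 4 with array weights and 1 without the 9 and 18 h arrays, and 1 to 3 when 1 array was left out. Of the 5 members whose second step differed from the first, 3 passed with median scaling, 3 without a filter, 0 with array weights (3 at an unadjusted p under 0.05), 3 without the 9 and 18 h arrays and 3 to 6 when 1 array was left out; without the 9 and 18 h arrays the contrast of SLC1A5 turned to -0.023 (adjusted p = 0.969). The 5 other transporters with a linear trend became 0 with the block, and 4 to 7 when 1 array was left out, and the 5 amino acid response genes 4 to 7. The 8 enzymes became 5 with array weights, 4 with the block and 5 without the 0 and 3 h arrays, and 5 to 9 when 1 array was left out (5 without the 0 h or the 3 h array). The count of members 1.7-fold from 0 h was 4, with 4 when any treated array was left out, 6 with normexp and 5 with median scaling or a baseline of 0 and 3 h. SLC7A5 and SLC3A2 kept their linear and spline calls in all 28 alternatives run for them. With 1 array a time point, short changes such as those at 3 h rest on 1 array, and dim probes give bounds.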
